A study of Mus musculus with 8 samples.

Results

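The interferon response genes are 49 genes that were named by symbol, by a rule that used no measured value but was drawn up with earlier results of these data known, and read through 1 probe set each, the one with the highest mean over the arrays. Of the 49, 43 had a probe set of their own on the MOE430A GeneChip, out of 12393 genes with a probe set and 22626 probe sets tested. Oas1g, Ddx58, Ifi44 and Ifi27 were not analysed here, and Isg15 and Ifi203 were found only on probe sets that more than 1 gene shares. Expression was measured in pre-BII cells, the bone marrow stage at which B cell precursors rearrange their light chain genes, sorted as B220+ CD25+ cells. Mice of strain Bl6, 7 weeks old, were either wild type, lacked OBF-1 (OBF-1-/-), lacked Aiolos (Aiolos-/-), or lacked both factors (double mutant), and no animal was infected or given interferon according to the labels or the study's methods. OBF-1 is a coactivator of the Oct transcription factors, and Aiolos is a zinc finger factor of the Ikaros family. Both deletions were carried in the germ line, so that every cell of a mutant mouse lacked the factor. Each genotype had 2 arrays, each from an independent pool of 8 mice according to the methods, whereas the labels name only bone marrow and, on mutant samples, 1 mouse. The p-values measure the spread between these arrays.

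Interferons signal through receptors that activate Jak kinases and Stat factors. Type I interferons bind Ifnar1 with Ifnar2 and lead to a complex that holds Stat2 and Irf9 and binds the interferon-stimulated response element (ISRE) in the promoters of antiviral genes, whereas interferon gamma acts through Ifngr1 with Ifngr2 and leads to binding at the gamma-activated site (GAS). The induced genes encode sensors of viral nucleic acids, proteins that block viral entry, translation or replication, GTPases that attack intracellular pathogens, and the machinery that loads peptides onto MHC class I. Socs1 and Usp18 are induced as well and shut the signal down. Many of these genes are also transcribed at a low level in unstimulated lymphocytes.

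Promoters were searched for the letters of the elements that interferon signalling acts on. RefSeq promoter windows of assembly GRCm38.p6, from 250 bases before to 50 bases after the start, were found for 33 of the 43 measured genes. The ISRE letters were taken as GAAA, any 2 bases and GAAA again, or on the other strand TTTC, any 2 bases and TTTC. Some genes have more than 1 window, and a gene counted when any of its windows held the letters. The letters were present in 18 of these 33 genes (54.5%), against 3.99% of the 27025 genes with a window. By role they were in 10 of 16 effectors, 4 of 5 GTPases, 2 of 5 receptor and signalling genes, the 1 sensor with a window and 1 of 6 class I genes. The stretches below are the 150 bases before the start, read 5′ to 3′ in the direction of the gene, with the ISRE letters in capitals. Socs1, Oas1a and Gbp3 are shown because they passed the test in at least 1 comparison, and Ifit1 and Irgm1 because they carry the same kind of element and passed in none.
Socs1, chr16:10785537-10785686, minus strand: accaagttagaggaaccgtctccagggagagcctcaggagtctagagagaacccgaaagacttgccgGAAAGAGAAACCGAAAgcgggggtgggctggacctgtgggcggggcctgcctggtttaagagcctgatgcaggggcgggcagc
Oas1a, chr5:120907526-120907675, minus strand: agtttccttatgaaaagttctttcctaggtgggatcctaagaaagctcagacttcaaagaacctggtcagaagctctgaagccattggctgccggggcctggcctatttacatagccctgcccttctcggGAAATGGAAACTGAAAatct
Gbp3, chr3:142559894-142560043, plus strand: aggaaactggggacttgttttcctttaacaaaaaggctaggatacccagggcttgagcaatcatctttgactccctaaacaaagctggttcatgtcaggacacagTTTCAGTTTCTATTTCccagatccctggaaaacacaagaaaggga
Ifit1, chr19:34640739-34640888, plus strand: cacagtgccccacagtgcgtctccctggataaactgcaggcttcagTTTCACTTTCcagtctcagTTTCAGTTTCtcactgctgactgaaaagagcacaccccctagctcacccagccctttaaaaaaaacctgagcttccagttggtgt
Irgm1, chr11:48871421-48871570, minus strand: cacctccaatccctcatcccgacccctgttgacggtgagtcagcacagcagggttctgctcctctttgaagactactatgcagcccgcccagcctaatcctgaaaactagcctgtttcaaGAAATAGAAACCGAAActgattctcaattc

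In 4 of the 5 stretches the capitals form a run of 16 bases, made of matches that overlap each other, and in Ifit1 they form 2 separate runs. The run ended 68 bases before the start in Socs1, 5 bases in Oas1a, 30 bases in Gbp3 and 15 bases in Irgm1. Gbp3 also has a window at a start further downstream that held no ISRE letters, and its window with the most matches is shown. The GAS letters TTCNNNGAA were present in 11 of the 33 genes (33.3%), against 9.55% of all genes. They overlapped the ISRE letters in 2 genes, Bst2 and Ifitm3. The octamer ATGCAAAT or ATTTGCAT, the sequence read by the Oct factors that OBF-1 assists, was in none of the 33 genes, against 1.97% of all genes. The core TGGGAA, or TTCCCA, which proteins of the Ikaros family read, was in 16 of the 33 (48.5%), against 28.3% of all genes, and overlapped the ISRE letters in Gbp3. Of the 5 genes with a window that passed in at least 1 comparison, 3 held the ISRE letters (60.0%), and of the 28 that passed in none, 15 did (53.6%). These counts describe letters in a window, without a measurement of binding.

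The transcript of the deleted OBF-1 gene, Pou2af1, followed the labels: its intensity was 2761 and 2678 in wild type, 241 and 236 in OBF-1-/- cells, 2434 and 2842 in Aiolos-/- cells and 170.1 and 273 in double-mutant cells. The Aiolos gene, Ikzf3, was not analysed here. Intensities are RMA values on a linear scale, comparable between arrays for 1 probe set but not between probe sets, and 25 of the 43 genes had a mean of at least 100 units, as did 41.1% of all probe sets. Markers of other cell types moved with the genotypes: the summed intensity of 11 granulocyte and monocyte genes was 22223 to 22355 in wild type, 27247 to 30803 in OBF-1-/- cells, 25249 to 26055 in Aiolos-/- cells and 27583 to 28086 in double-mutant cells. Of these 11, 9 had mean intensities of at least 100, and the monocyte marker Fcgr1 was near 15. The 4 measured markers of plasmacytoid dendritic cells, the main producers of type I interferon, were all under 100 in each genotype, and their summed intensity lay between 110.5 and 130.5. So were 4 of 5 T cell and 2 of 3 NK cell markers. The pre-B marker Pax5 was under 100 as well, with genotype means of 62.1 to 68.5, so such a level does not show that a cell type was absent. Siglech, a further marker of plasmacytoid dendritic cells, was not analysed here. The 4 mature B markers summed to 3667 to 3953 in wild type and 2404 to 2411 in double-mutant cells, where Ms4a1 fell by 2.00 on the log2 scale (limma adjusted p = 1.6e-07) and Cd22 rose by 0.44 (limma adjusted p = 0.0388). The 3 plasma cell markers summed to 1135 to 1140 in wild type, 1391 to 1510.1 in OBF-1-/- cells, 1114 to 1130 in Aiolos-/- cells and 1578 to 1629 in double-mutant cells, with Sdc1 higher by 0.98 in the last (limma adjusted p = 9.64e-05). Such sums are carried by the brightest probe sets. Of the plasma cell markers, Xbp1 stood at 0.16 and Prdm1 at -0.19 in double-mutant cells against wild type. Neither passed (limma adjusted p = 0.483 and 0.27). The 8 pre-B markers did not move together: against wild type Vpreb3 fell by 2.36 in OBF-1-/- cells and 1.72 in double-mutant cells (limma adjusted p = 3.76e-08 and 3.53e-07) and Cd79b by 0.48 and 0.81 (limma adjusted p = 0.0175 and 0.000162), whereas Il2ra, which encodes CD25, rose by 0.60 and 0.66 (limma adjusted p = 0.0116 and 0.00203). Ebf1 fell by 0.58 in Aiolos-/- cells and 0.51 in double-mutant cells (limma adjusted p = 0.0297 and 0.0177). Rag2 rose by 0.70 in double-mutant cells (limma adjusted p = 0.0139), and Cd79a, Rag1 and Pax5 did not pass in any mutant against wild type. The part of these shifts in the results was not tested, and in these bulk samples fewer cells of a type and less RNA per cell cannot be told apart. By the scanner files, fluidics station 2 handled the wild type and OBF-1-/- arrays, and station 1 those without Aiolos, so station and presence of Aiolos cannot be told apart.

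The median change of the interferon response genes against wild type lay near 0 in each mutant, while single genes passed the test. A gene was counted as changed when the limma adjusted p, taken over all 22626 probe sets, was under 0.05. The 43 probe sets are the brightest of their genes, and 25 had a mean of at least 100, against 41.1% of all probe sets. The shares below thus come from sets of unlike brightness, and the part of brightness in them was not tested. In OBF-1-/- cells 1 of the 43 genes (2.33%) passed against wild type, against 2.09% of all probe sets, and it was lower (1.14% of all), with none higher (0.946% of all). In Aiolos-/- cells 3 (6.98%) passed against 1.84% of all, of which 2 were higher (0.831% of all) and 1 lower (1.01% of all). In the double mutant 6 (14.0%) passed against 8.57% of all, of which 2 were higher (4.29% of all) and 4 lower (4.28% of all). The double mutant differed from Aiolos-/- cells in 3 genes (6.98%), each lower (1.19% of all), with none higher (1.75% of all), against 2.95% in either direction. It differed from OBF-1-/- cells in 3 genes (6.98%), of which 2 were higher (1.61% of all) and 1 lower (1.03% of all), against 2.63% in either direction. The interaction, that is whether the effect of losing 1 factor depended on the other, passed in none of the 43 in limma, against 0.186% of all probe sets. At an unadjusted p under 0.05 the numbers were 5, 10, 15, 13, 14 and 5 genes in the same order of comparisons. The share of all probe sets at this threshold was not counted, so these numbers cannot be set against the whole array. The comparisons with wild type share its arrays, and those with a single mutant share the double-mutant arrays.

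Against wild type the centre of the distribution stayed near 0. The median log2 fold change of the 43 genes was -0.0089 in OBF-1-/- cells, -0.0017 in Aiolos-/- cells and -0.067 in double-mutant cells, against 0.020, 0.030 and 0.0083 for all probe sets. In double-mutant cells against Aiolos-/- cells it was -0.068, against -0.025 for all, with 14 genes higher and 29 lower. There the 20 antiviral effectors had a median of -0.19, with 3 higher and 17 lower, and the 6 GTPases 0.095. Against OBF-1-/- cells the median of the 43 was -0.048, against -0.015 for all. Differences between roles were not tested, and the directions over all probe sets were not counted. Within 1.2-fold of wild type lay 37, 34 and 28 of the 43 genes, against 89.5%, 85.0% and 82.0% of all probe sets. Array by array, the median of the 43 genes lay between -0.040 and 0.0048 on the log2 scale relative to the wild type mean of each gene on the 6 mutant arrays, and at 0.037 and -0.037 on the 2 wild type arrays. Over all, 8 genes passed in at least 1 of the 6 comparisons (Oas1a, Oas2, Oasl1, Usp18, Gbp3, Iigp1, Trim25 and Socs1), and 4 of them had a mean intensity under 100. The other 35 passed in none, and their log2 fold changes against wild type ran from -0.49 to 0.37. The share of all probe sets that passed in at least 1 of the 6 comparisons was not counted, so these 8 have no such share beside them. The 95% interval of a fold change reached 0.24 to either side on the log2 scale for the median gene and 0.62 for Iigp1, the widest.

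**Figure D1:**
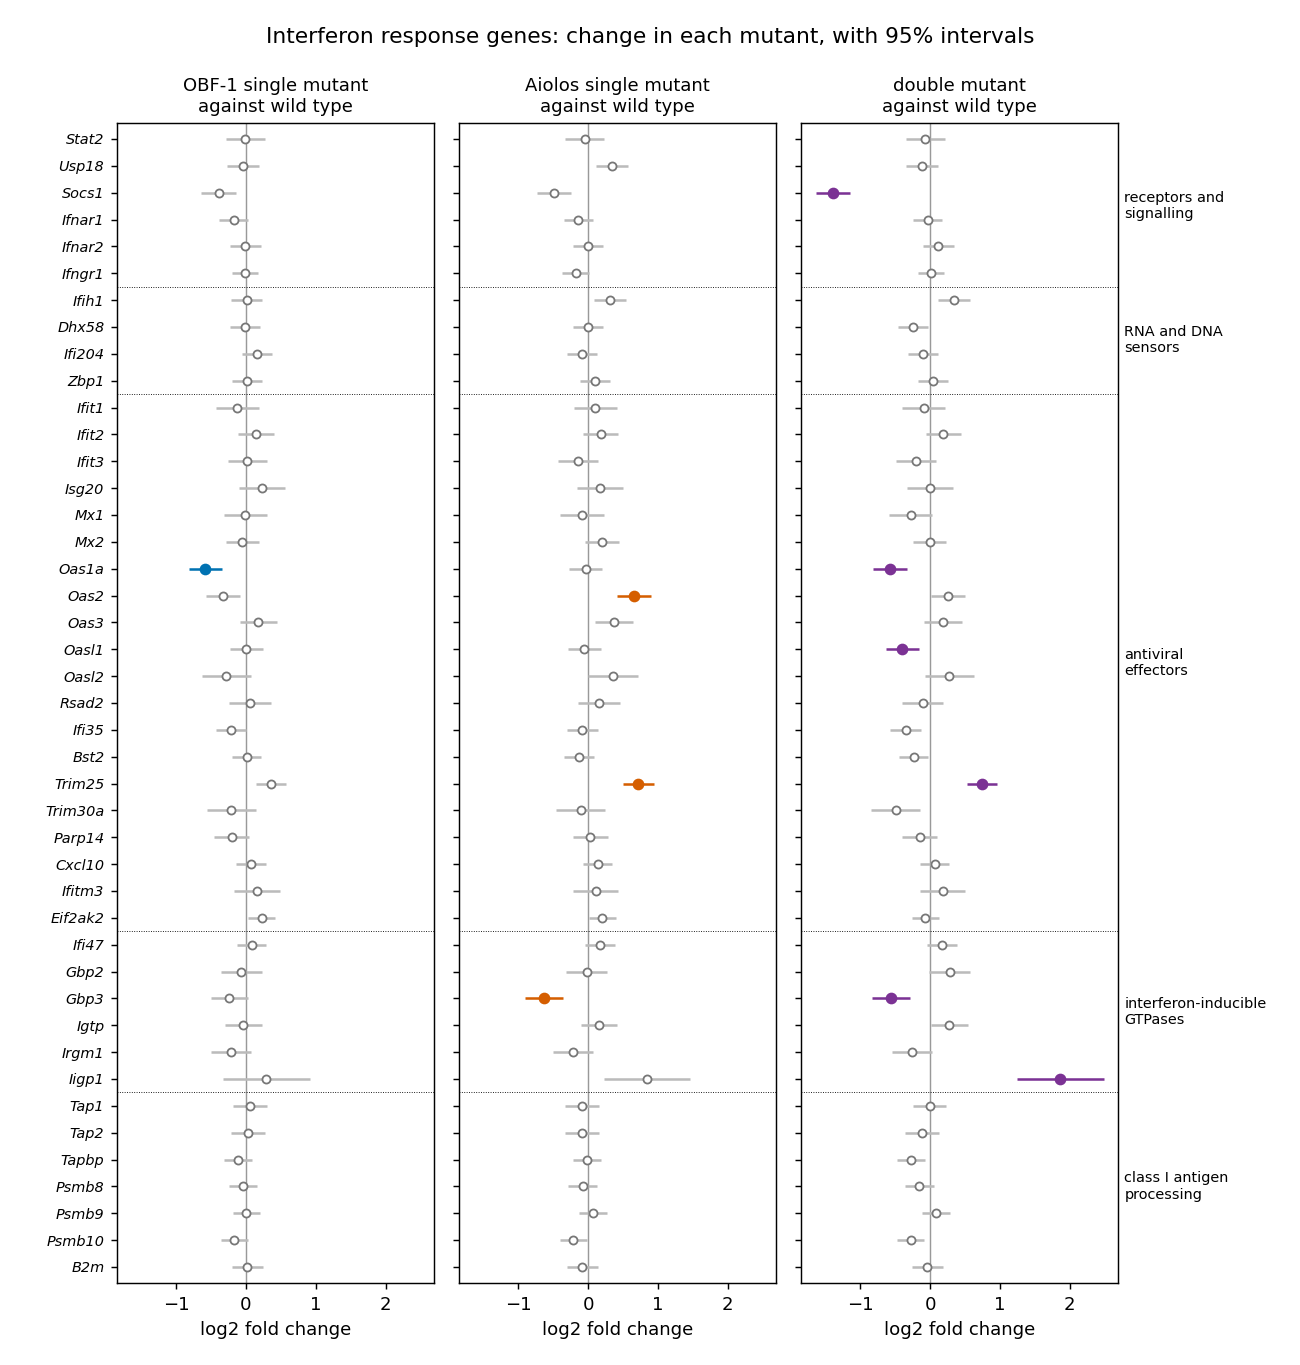
Log2 fold change (x axis) of each of the 43 measured interferon response genes, listed by role, in the 3 mutants against wild type, with 95% intervals from limma; filled points passed at an adjusted p under 0.05. Most intervals cross 0, and the points farthest from it are Iigp1 at 1.86 and Socs1 at -1.39 in double-mutant cells.

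**Figure D2:**
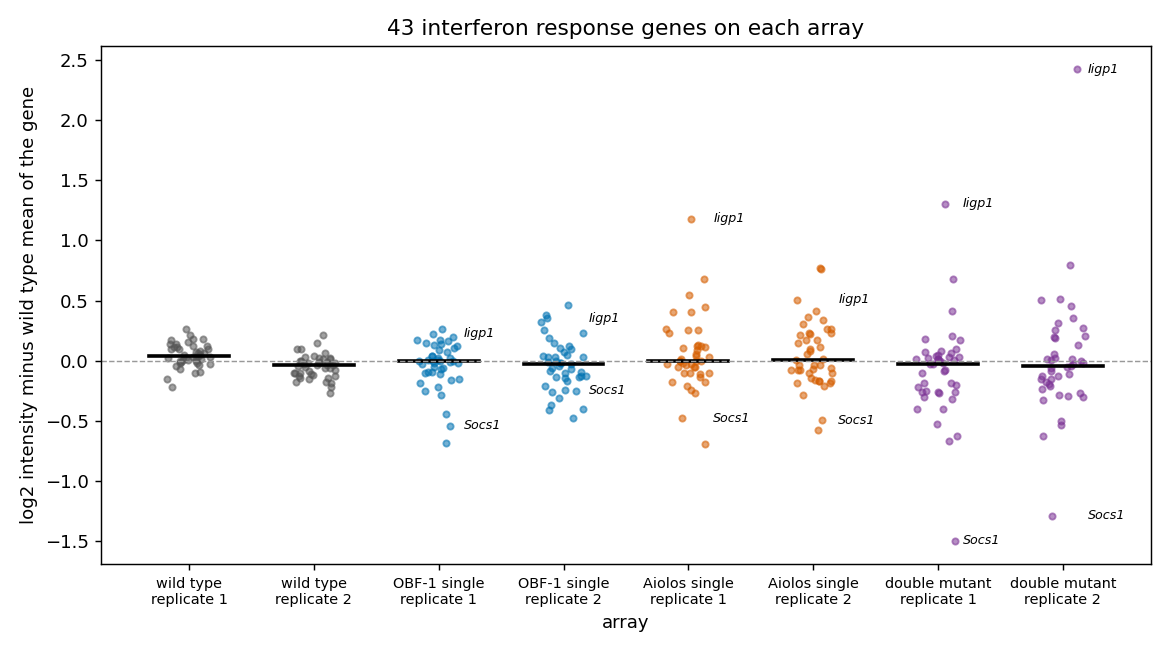
Each point is 1 of the 43 genes on 1 array, as log2 intensity minus the mean of the gene in wild type (y axis), with the median of the array as a black line. The medians stay between -0.040 and 0.037, while Iigp1 and Socs1 leave the range of the other genes on the double-mutant arrays.

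Among the receptors and signalling components, which numbered 6, the receptor chains and Stat2 did not pass in any comparison, and the inhibitors Socs1 and Usp18 did. Ifnar1, 1 chain of the type I receptor, had intensities of 212 and 194 on the wild type arrays, 174 and 185 on the OBF-1-/- arrays, 179 and 189 on the Aiolos-/- arrays and 191 and 205 on the double-mutant arrays. Its log2 fold change against wild type was -0.18, -0.14 and -0.035 in the OBF-1 single, Aiolos single and double mutant. For Ifnar2, the partner chain, the corresponding fold changes were -0.0091, -0.00073 and 0.12, with a 95% interval of -0.10 to 0.34 for the last. Ifngr1, the ligand-binding chain of the interferon gamma receptor, read 365 and 374 in wild type, 371 and 362 in OBF-1-/- cells, 327 and 326 in Aiolos-/- cells and 369 and 376 in double-mutant cells. Both of its Aiolos-/- arrays lay below the other 6, at a log2 fold change of -0.18 (limma adjusted p = 0.29). Stat2, a factor of the type I response, read 173 and 142 in wild type, 174 and 139.5 in OBF-1-/- cells, 147 and 157 in Aiolos-/- cells and 158 and 141 in double-mutant cells, and the arrays of the 4 genotypes overlapped.

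Socs1 showed the most marked fall among the 43 genes. It encodes a suppressor of cytokine signalling that binds and inhibits Jak kinases, and its promoter carries the ISRE run shown above. Its intensity (1450446_a_at) was 159 and 164 on the wild type arrays, 111 and 136 on the OBF-1-/- arrays, 116 and 115 on the Aiolos-/- arrays and 57.3 and 66.2 on the double-mutant arrays. The wild type arrays were highest, the arrays of both single mutants lay below them and overlapped each other, and both double-mutant arrays lay below all of these. The mean ± SD fell from 161 ± 3.39 in wild type to 61.7 ± 6.29 in double-mutant cells (n = 2 arrays each), which is 2.62-fold lower, a log2 fold change of -1.39 (SE 0.11, limma adjusted p = 1.28e-05). The double mutant was also 1.87-fold lower than Aiolos-/- cells (log2 -0.91, limma adjusted p = 0.000733) and 2-fold lower than OBF-1-/- cells (log2 -0.999, limma adjusted p = 0.0005). In the single mutants the log2 fold change against wild type was -0.39 without OBF-1 (95% interval -0.64 to -0.14, limma adjusted p = 0.128) and -0.49 without Aiolos (95% interval -0.73 to -0.24, limma adjusted p = 0.0562), neither of which passed. The interaction was -0.51 (95% interval -0.87 to -0.16) and did not pass after adjustment (limma adjusted p = 0.303), so a greater than additive fall was not established. The difference between double mutant and wild type passed in 18 of 18 alternative treatments of the data, those that left out 1 array included, and was the sole result on the 43 genes that did.

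Usp18, which strips Isg15 from proteins and blocks the type I receptor, was dim. It read 34.0 and 30.3 in wild type, 32.2 and 30.3 in OBF-1-/- cells, 38.6 and 42.7 in Aiolos-/- cells and 27.9 and 31.7 in double-mutant cells. Both Aiolos-/- arrays lay above the others, and the double mutant was lower than they were, at a log2 fold change of -0.45 (SE 0.11, limma adjusted p = 0.0418). Against wild type the log2 fold change was 0.34 in Aiolos-/- cells (limma adjusted p = 0.124) and -0.11 in double-mutant cells (limma adjusted p = 0.619). The call held in 3 of 16 alternatives and was lost on leaving out any 1 of the 8 arrays.

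None of the 4 measured sensors passed in any comparison. Zbp1, a sensor of nucleic acids and the sensor with the highest mean intensity, read 90.3 and 95.8 in wild type, 87.3 and 100.5 in OBF-1-/- cells, 101 and 98.3 in Aiolos-/- cells and 97.6 and 93.1 in double-mutant cells, with overlapping arrays. For Ifih1, the cytosolic RNA sensor also known as Mda5, the intensities were 52.9 and 51.2 on the wild type arrays, 55.2 and 49.6 on the OBF-1-/- arrays, 69.0 and 60.7 on the Aiolos-/- arrays and 69.3 and 62.7 on the double-mutant arrays. Both groups of mice without Aiolos lay above both groups that had it, without overlap, yet the log2 fold changes of 0.32 in Aiolos-/- cells (limma adjusted p = 0.138) and 0.34 in double-mutant cells (limma adjusted p = 0.066) did not pass. Dhx58, a relative of Ifih1 that modulates it, had a log2 fold change of -0.25 in double-mutant cells (limma adjusted p = 0.178). Ifi204 gave intensities near 8, at the low end of the arrays.

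The 20 measured antiviral effectors, which are 46.5% of the 43 genes, held 4 of the 8 that passed, and 3 of those 4 belong to the oligoadenylate synthetase family. These enzymes are switched on by double-stranded RNA and make the messenger that activates RNase L. Oas1a (1424775_at) read 267 and 227 on the wild type arrays, 153 and 177 on the OBF-1-/- arrays, 246 and 235 on the Aiolos-/- arrays and 171 and 159.8 on the double-mutant arrays. The 4 arrays without OBF-1 lay below the 4 arrays with it, whether or not Aiolos was present. Its log2 fold change was -0.58 in OBF-1-/- cells against wild type (SE 0.11, limma adjusted p = 0.0178), -0.57 in double-mutant cells against wild type (SE 0.11, limma adjusted p = 0.00683) and -0.54 in double-mutant cells against Aiolos-/- cells (SE 0.11, limma adjusted p = 0.0208), that is 1.49-, 1.49- and 1.45-fold lower. The Aiolos single mutant differed from wild type by -0.034 (95% interval -0.27 to 0.21). Without wild type replicate 1, the brightest array, the fall in OBF-1-/- cells and that in double-mutant cells against wild type did not pass, and without OBF-1-/- replicate 1 the former did not. The fall against Aiolos-/- cells was lost without any 1 of the arrays of those 2 genotypes.

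Oas2 (1425065_at) rose on loss of Aiolos, from wild type and from OBF-1-/- cells. Its intensities were 154 and 144 on the wild type arrays, 109.9 and 129 on the OBF-1-/- arrays, 218 and 255 on the Aiolos-/- arrays and 172 and 186 on the double-mutant arrays. The Aiolos-/- arrays were the highest and the OBF-1-/- arrays the lowest, and no genotype overlapped another. The log2 fold change was 0.66 in Aiolos-/- cells against wild type (SE 0.11, limma adjusted p = 0.0159), a 1.58-fold rise. It was 0.59 in double-mutant cells against OBF-1-/- cells (SE 0.11, limma adjusted p = 0.018), a 1.5-fold rise. Loss of OBF-1 gave -0.33 against wild type (limma adjusted p = 0.215) and -0.40 on the Aiolos mutant background (limma adjusted p = 0.0904), neither of which passed. The double mutant stood at 0.26 from wild type (95% interval 0.016 to 0.51, limma adjusted p = 0.203). The Aiolos-/- call was lost without either wild type array or without Aiolos-/- replicate 2, and the double-mutant call without OBF-1-/- replicate 1 or either double-mutant array.

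Oasl1, a family member without synthetase activity, fell in double-mutant cells against wild type. It read 102 and 94.96 in wild type, 94.1 and 104 in OBF-1-/- cells, 95.9 and 93.5 in Aiolos-/- cells and 82.1 and 67.9 in double-mutant cells, and its double-mutant log2 fold change of -0.40 (SE 0.11, limma adjusted p = 0.0421) passed in 8 of 16 alternatives. It was lost without either wild type array, either Aiolos-/- array or double-mutant replicate 2. Oas3 had a log2 fold change of 0.37 in Aiolos-/- cells (limma adjusted p = 0.14), and Oasl2 had 0.35 (limma adjusted p = 0.267); neither passed. The 5 measured members of the family thus gave no common direction in any mutant.

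Trim25, a ubiquitin ligase that activates the RNA sensor encoded by Ddx58, was among the brighter of the 43 and rose in both groups of mice without Aiolos. Its probe set (1419879_s_at, of a type that can bind transcripts of more than 1 gene) read 1152 and 1123 on the wild type arrays, 1365 and 1567 on the OBF-1-/- arrays, 1817 and 1931 on the Aiolos-/- arrays and 1826 and 1976 on the double-mutant arrays. Wild type was lowest, the OBF-1-/- arrays were intermediate, and the 4 arrays without Aiolos were highest. The log2 fold change against wild type was 0.72 in Aiolos-/- cells (SE 0.099, limma adjusted p = 0.00617) and 0.74 in double-mutant cells (SE 0.099, limma adjusted p = 0.000638), that is 1.65- and 1.67-fold higher. In OBF-1-/- cells it was 0.36 (limma adjusted p = 0.104), and the double mutant differed from Aiolos-/- cells by 0.02 (95% interval -0.20 to 0.24). The other probe sets of Trim25 gave the same direction: 1425974_a_at rose by 0.73 and 0.84 in the Aiolos single and double mutant (limma adjusted p = 0.00332 and 0.000123), and 1426415_a_at by 0.78 and 0.67 (limma adjusted p = 0.00616 and 0.00203). The Aiolos-/- call was lost without wild type replicate 1.

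The other 16 effectors did not pass in any comparison, and among them were the genes most often read as a sign of interferon exposure. Ifit1, whose product binds viral RNA and whose promoter holds 2 ISRE runs, read 28.1 and 24.1 on the wild type arrays, 21.3 and 26.6 on the OBF-1-/- arrays, 25.2 and 31.2 on the Aiolos-/- arrays and 26.1 and 22.8 on the double-mutant arrays. Its log2 fold change was -0.13, 0.11 and -0.094 in the 3 mutants, with a 95% interval of -0.40 to 0.21 in double-mutant cells. Ifit3 read 51.4 and 39.9 in wild type, 45.1 and 46.8 in OBF-1-/- cells, 45.1 and 37.1 in Aiolos-/- cells and 38.1 and 40.8 in double-mutant cells. Rsad2, which encodes the antiviral enzyme viperin, read 156 and 162 in wild type, 148 and 187 in OBF-1-/- cells, 161 and 197 in Aiolos-/- cells and 162 and 135 in double-mutant cells, and Mx1, an antiviral GTPase, had log2 fold changes of -0.0066, -0.087 and -0.28. For Isg20, an RNA exonuclease, these were 0.23, 0.17 and -0.0073, for the RNA-activated kinase gene Eif2ak2 0.22, 0.20 and -0.067, and for Ifitm3, which blocks viral entry, 0.16, 0.11 and 0.18. Ifi35 and Trim30a came nearest to the threshold, both in double-mutant cells, Ifi35 at -0.35 (limma adjusted p = 0.0505) and Trim30a at -0.49 (limma adjusted p = 0.0839). Cxcl10, a chemokine gene, and Ifit2 lay under 25 units on the mean of each genotype. The probe set that Isg15 shares with Gm9706 read 55 to 66 on the 8 arrays and passed in no comparison.

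The interferon-inducible GTPases were 6 genes, and 2 passed, in opposite directions. Iigp1, an immunity-related GTPase that disrupts the vacuoles of intracellular parasites, had the largest change against wild type of the 43 genes. Its intensities (1419043_a_at) were 31.2 and 31.8 on the wild type arrays, 36.9 and 40.3 on the OBF-1-/- arrays, 71.4 and 44.8 on the Aiolos-/- arrays and 77.8 and 169 on the double-mutant arrays. The wild type arrays were lowest and close together, the OBF-1-/- arrays lay just above them, and the Aiolos-/- and double-mutant arrays were higher without overlap but spread widely, and the double-mutant arrays differed most from each other. The double mutant was 3.64-fold above wild type, a log2 fold change of 1.86 (SE 0.28, limma adjusted p = 0.00155), and 2.97-fold above OBF-1-/- cells (log2 1.57, SE 0.28, limma adjusted p = 0.0127). The changes of 0.84 in Aiolos-/- cells against wild type (95% interval 0.22 to 1.46, limma adjusted p = 0.146) and 1.018 in double-mutant cells against Aiolos-/- cells (95% interval 0.40 to 1.64, limma adjusted p = 0.089) did not pass, nor did the interaction of 0.73 (limma adjusted p = 0.489). A dimmer probe set of the gene, 1419042_at, read 10.2 and 12.4 in wild type, 10.7 and 12.2 in OBF-1-/- cells, 13.7 and 13.4 in Aiolos-/- cells and 16.6 and 19.4 in double-mutant cells and rose by 0.68 on the log2 scale in double-mutant cells against wild type (limma adjusted p = 0.00384). Without the higher double-mutant array, replicate 2, the rise against wild type was 1.30 (limma adjusted p = 0.0056), and without replicate 1 it was 2.42 (limma adjusted p = 0.000127). The rise against OBF-1-/- cells was lost without either array of that mutant and under the trend and robust variance model, and the change in Aiolos-/- cells against wild type passed without either double-mutant array (limma adjusted p = 0.0423).

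Gbp3, a guanylate-binding protein, fell in both groups of mice without Aiolos. It read 53.7 and 66.0 in wild type, 55.4 and 46.1 in OBF-1-/- cells, 36.9 and 39.9 in Aiolos-/- cells and 38.6 and 42.2 in double-mutant cells, and the 4 arrays without Aiolos lay below the 4 others. The log2 fold change against wild type was -0.63 in Aiolos-/- cells (SE 0.12, limma adjusted p = 0.028) and -0.56 in double-mutant cells (SE 0.12, limma adjusted p = 0.0152). Against OBF-1-/- cells the double mutant stood at -0.32 (limma adjusted p = 0.231). Leaving out either array of wild type or of Aiolos-/- cells ended the first call, and leaving out wild type replicate 2 or double-mutant replicate 1 ended the second. Its relative Gbp2 had a log2 fold change of 0.28 in double-mutant cells (limma adjusted p = 0.262). The remaining members Igtp, Irgm1 and Ifi47, which were brighter, gave 0.28, -0.26 and 0.17 in double-mutant cells, and none passed. Irgm1, whose promoter holds an ISRE run like that of Gbp3, read 336 and 337 in wild type, 333 and 255 in OBF-1-/- cells, 285 and 296 in Aiolos-/- cells and 255 and 312 in double-mutant cells.

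The 7 genes of class I antigen processing passed in no comparison. B2m, the light chain of MHC class I, read 5889.9 and 5837 in wild type, 6447 and 5492 in OBF-1-/- cells, 5753 and 5317 in Aiolos-/- cells and 5748 and 5641 in double-mutant cells, and its log2 fold changes were 0.021, -0.084 and -0.042 in the 3 mutants, with a 95% interval of -0.26 to 0.18 for the last. The peptide transporter genes Tap1 and Tap2 stood at -0.0063 and -0.12 in double-mutant cells. The immunoproteasome genes Psmb8, Psmb9 and Psmb10 stood at -0.15, 0.082 and -0.28, and the loading factor gene Tapbp at -0.27. In both single mutants each of the 7 lay within 1.2-fold of wild type.

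**Figure D3:**
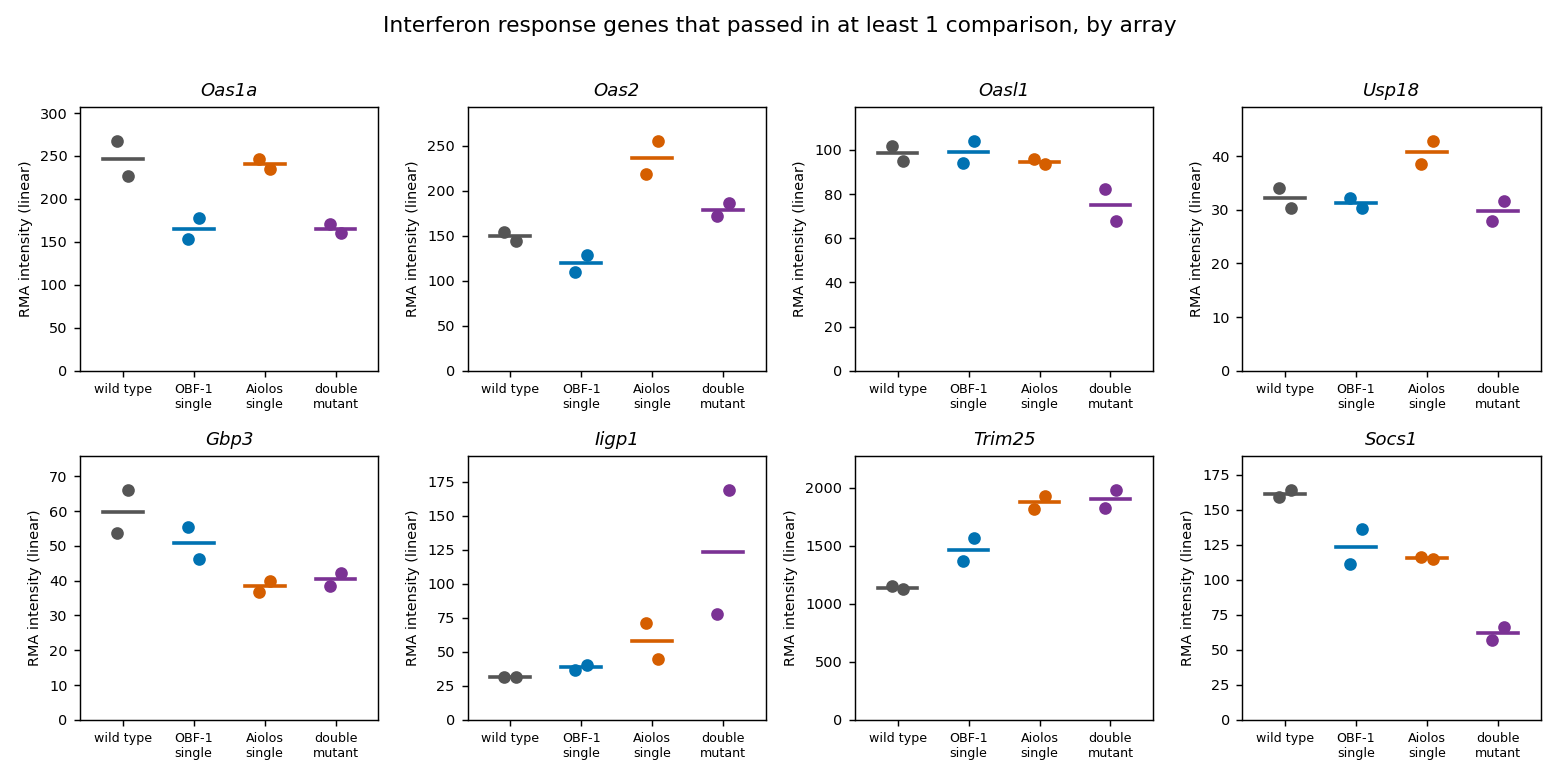
RMA intensity on a linear scale (y axis, from 0) of the 8 genes that passed in at least 1 comparison, with 1 point per array and a bar at the mean of the 2 arrays of a genotype. Socs1 is lowest in double-mutant cells, Oas1a is low in both groups without OBF-1, and Trim25 and Gbp3 separate the groups with and without Aiolos in opposite directions.

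Each factor was removed in 2 settings, from wild type and from the other mutant, and these comparisons share no array. For loss of OBF-1, which was compared within a fluidics station in both settings, 25 of the 43 genes (58.1%) moved in the same direction in both, against 51.1% of all probe sets. Across the 43 genes the fold changes correlated at r = 0.50, against 0.45 across all probe sets, and at 0.34 without Iigp1 and Socs1. Only Oas1a passed in both settings, at -0.58 and -0.54. For loss of Aiolos, which was compared across stations in both settings, 33 of the 43 (76.7%) moved in the same direction, against 55.1% of all probe sets, with r = 0.75 across the 43 genes, 0.38 across all probe sets and 0.63 without Iigp1 and Socs1. Only Oas2 passed in both. Genes are not independent replicates, and these correlations are a description. The 5 genes that passed in at least 1 of these settings were Iigp1 (0.84 and 1.57), Oas2 (0.66 and 0.59), Trim25 (0.72 and 0.38), Gbp3 (-0.63 and -0.32) and Socs1 (-0.49 and -0.999).

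**Figure D4:**
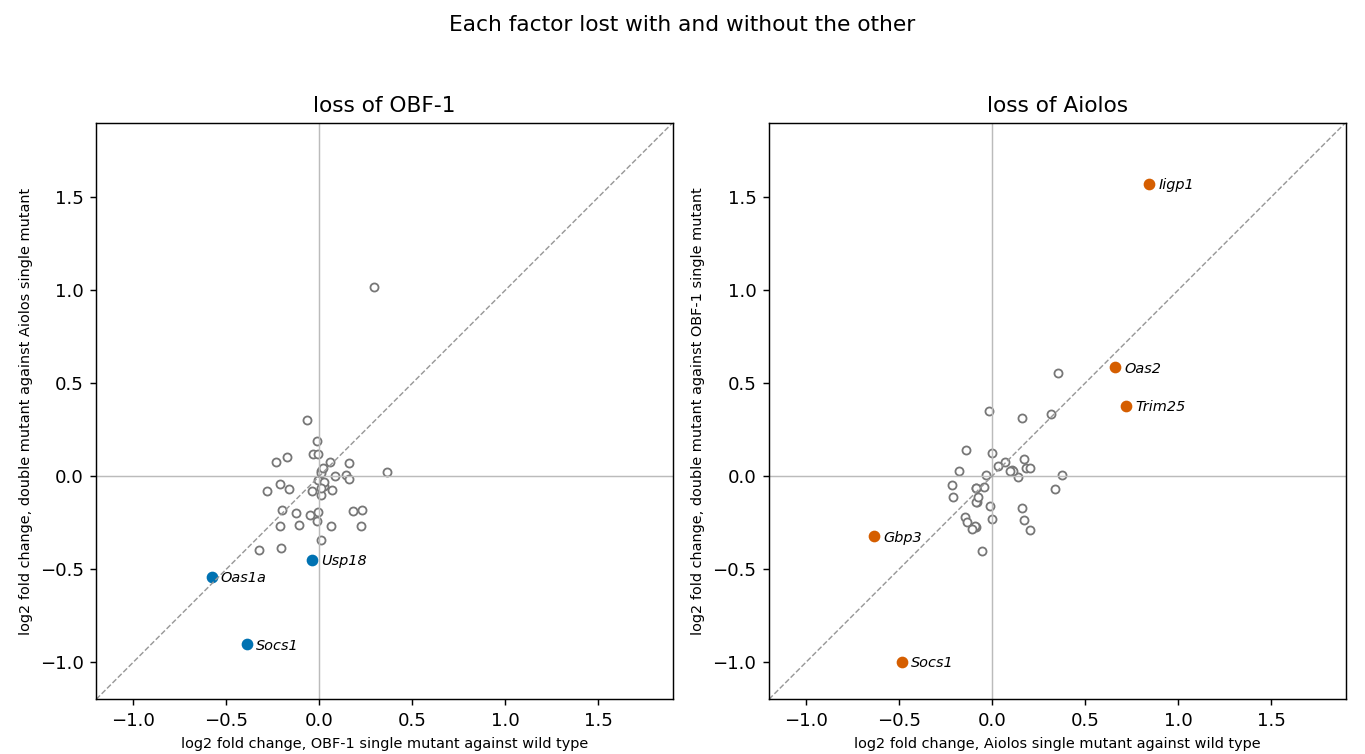
Log2 fold change of the 43 genes on loss of a factor from wild type (x axis) and from the other mutant (y axis), for OBF-1 on the left and Aiolos on the right; filled and labelled genes passed in at least 1 of the comparisons plotted, and the dashed line marks equal change. Oas1a lies on the line for OBF-1 and Oas2 close to it for Aiolos, while Socs1 lies below it in both panels.

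The rest of the pathway was read through 81 other genes, of which 61 were measured. This list was chosen with earlier results of these data known, so the shares below do not test whether the pathway as a whole changed. Among them 3 (4.92%) passed in OBF-1-/- cells (1 higher, 2 lower), against 2.09% of all probe sets. In Aiolos-/- cells 3 (4.92%) passed (1 higher, 2 lower), against 1.84%, and in double-mutant cells 11 of the 61 passed (4 higher, 7 lower), against 8.57%. The double mutant differed from Aiolos-/- cells in 3 (4.92%, against 2.95% of all), each lower, and from OBF-1-/- cells in 4 (6.56%, against 2.63%), 1 higher and 3 lower, and the interaction passed in 1 (1.64%, against 0.186%). The 6 measured interferon genes did not pass: Ifnb1 read 41.6 and 37.6 in wild type, 41.7 and 41.7 in OBF-1-/- cells, 36.3 and 39.5 in Aiolos-/- cells and 43.1 and 32.03 in double-mutant cells, and Ifng read 15.6 and 16.2 in wild type, 17.4 and 15.8 in OBF-1-/- cells, 15.5 and 16.0 in Aiolos-/- cells and 15.8 and 12.8 in double-mutant cells. Neither did the 4 receptor and kinase genes, among them Jak1 at 0.13 and Tyk2 at 0.0043 in double-mutant cells, nor the 5 inhibitors. Of the 8 factors, Irf1 stood at 0.10, Irf7 at -0.12 and Irf9 at -0.058 in double-mutant cells. The exception was Irf8, a factor of myeloid and B cells, which fell by 0.47 on the log2 scale (SE 0.12, limma adjusted p = 0.036). It read 1252 and 1029 on the wild type arrays and 744 and 907 on the double-mutant arrays. This fall differs from the study's statement, made without data shown, of equal Irf8 expression in pre-BII cells of its genotypes. That fall passed in 11 of 18 alternatives and was lost without wild type replicate 1, either OBF-1-/- array or double-mutant replicate 1.

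Of the 11 genes of this wider list that passed in double-mutant cells against wild type, 9 were among its 31 induced genes, 1 among its 8 factors and 1 among its 7 class I genes, and the difference between these roles was not tested. Slfn2, a Schlafen gene that keeps lymphocytes quiescent, read 859 and 823 on the wild type arrays, 807 and 905 on the OBF-1-/- arrays, 466 and 539 on the Aiolos-/- arrays and 263 and 272 on the double-mutant arrays. The OBF-1 single mutant overlapped wild type, Aiolos-/- cells lay lower, and the double mutant lay lower still. It fell by 0.75 in Aiolos-/- cells (limma adjusted p = 0.00617) and by 1.65 in double-mutant cells (limma adjusted p = 1.33e-06), and its interaction of -0.93 passed (limma adjusted p = 0.0259). Ifi27l2a, a small mitochondrial protein gene, read 1496 and 1428 on the wild type arrays, 858 and 883 on the OBF-1-/- arrays, 1220.2 and 1469.7 on the Aiolos-/- arrays and 459.6 and 489 on the double-mutant arrays. It fell by 0.75 in OBF-1-/- cells (limma adjusted p = 0.00251) and by 1.62 in double-mutant cells (limma adjusted p = 1.79e-06), with -0.13 in Aiolos-/- cells (limma adjusted p = 0.54). Ifi30, the thiol reductase of MHC class II antigen processing, read 1723 and 1629 in wild type, 1019 and 975 in OBF-1-/- cells, 976 and 1143 in Aiolos-/- cells and 613 and 801 in double-mutant cells and fell in each mutant, by 0.75, 0.66 and 1.26 (limma adjusted p = 0.00974, 0.0267 and 7.11e-05). The falls of Ifi30 in the single mutants were lost without either wild type array, that in OBF-1-/- cells also without its replicate 2 and that in Aiolos-/- cells without its replicate 1. In the double mutant against wild type, Sp100, a component of nuclear bodies, fell by 0.69 (limma adjusted p = 0.00178), Nmi, which binds Stat factors, by 0.47 (0.0453) and Pdia3, a chaperone of the class I loading complex, by 0.55 (0.00767). The genes that rose there were Slfn1 at 0.57 (0.0161), Lgals9 at 0.47 (0.0198), Lgals3bp at 0.40 (0.0277) and Gbp6 at 0.33 (0.0491), the last at intensities near 10. The Gbp6 call held in 3 of 16 alternatives and was lost on leaving out any 1 of the 8 arrays, and that of Nmi held in 9 of 18 and was lost under quantile normalization, with the replicate block, and without either wild type array, either OBF-1-/- array or double-mutant replicate 2. Leaving out either wild type array also ended the calls of Slfn1, Lgals9 and Lgals3bp, and wild type replicate 1 that of Pdia3. Leaving out double-mutant replicate 1 ended those of Lgals9, Lgals3bp and Pdia3, and leaving out its replicate 2 those of Slfn1 and Lgals3bp. Lgals3bp also rose in both single mutants, by 0.44 and 0.44 (limma adjusted p = 0.0396 and 0.0479), each in 5 of 16 alternatives and neither under quantile normalization, without either wild type array or in a fit of only the compared genotypes. Uba7, the activating enzyme of Isg15 conjugation, was higher in double-mutant cells than in OBF-1-/- cells by 0.41 (limma adjusted p = 0.0387), a call that held in 6 of 18 alternatives and was lost on leaving out any 1 of the 8 arrays or on averaging all probe sets of the gene.

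**Figure D5:**
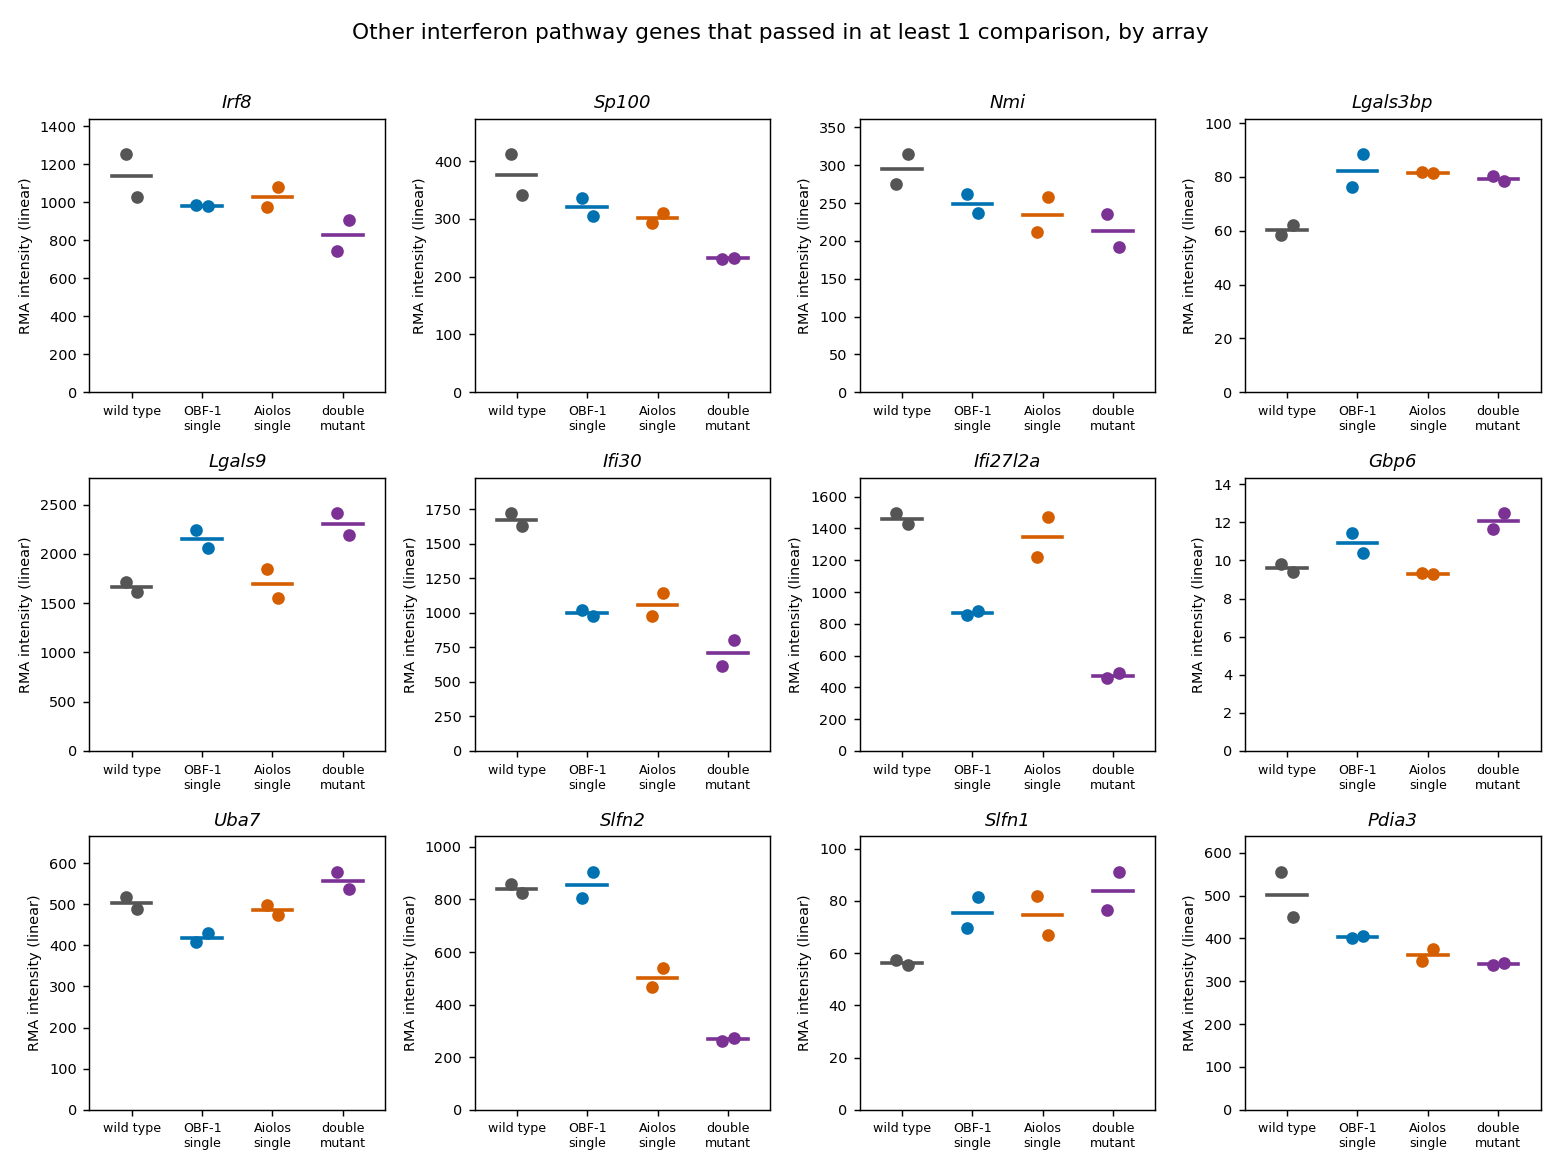
RMA intensity on a linear scale (y axis, from 0) of the 12 genes of the wider pathway list that passed in at least 1 comparison, with 1 point per array and a bar at the mean of the 2 arrays of a genotype. Slfn2, Ifi27l2a and Ifi30 are lowest in double-mutant cells, and Ifi27l2a in Aiolos-/- cells stays near wild type.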

How the data were processed

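Expression was measured on MOE430A GeneChips in 8 samples, 2 for each of 4 genotypes. The deposited values are intensities, which the authors obtained with RMA (its version is not given in the sources used here), a method that subtracts background, makes the distributions of the arrays equal and reduces the probes of a set to 1 value. For the study's own figures its methods name Affymetrix Microarray suite 5 with GeneSpring 5. With a range of 5.77 to 11283 the values are on a linear scale, and log2 was taken. Of 22690 probe sets 64 controls were left out. The annotation of the platform paired 20380 probe sets with 1 symbol, 691 with several and 1555 with none. Of the 20380, which covered 12393 symbols, 20351 could be matched to a gene table consulted for names alone.

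Linear models were fitted to the log2 values (R 4.3.3, limma 3.58.1) with a mean for each genotype, 4 residual and 7.69 prior degrees of freedom, and Benjamini-Hochberg adjustment over 22626 probe sets, and a change counted at an adjusted p under 0.05. The interaction was the change in double mutants less both changes seen on loss of 1 factor. The procedure was run on simulated data with independent normal spread, drawn from the variances of the same model, and no station effect. That run checks the code and does not measure how reliable the calls are with 2 arrays per genotype. Over log2 values, arrays of 1 genotype correlated at an r of 0.9961 to 0.9965 and those of different genotypes at 0.9878 to 0.9946, and the number of arrays limits the precision. Values per array are given for each of the 43 genes that passed in at least 1 comparison, for the gene of highest mean intensity in each role without such a gene and for the 3 largest changes of each mutant against wild type. Genes of the wider pathway are named when they passed, and the others given with values were picked as well-known examples after their values were seen. The members and lists were chosen with earlier results of these data known. Replicate numbers did not pair the arrays: deviations of same-numbered arrays correlated at -0.088 to 0.10, and 1 of 6 pairs of genotypes exceeded 0.1. Alternatives changed the normalization, the intensity filter, the variance model, the genotypes in the fit and the probe sets averaged per gene, added a replicate block or a 1.5-fold minimum, or left out 1 array. Promoters are RefSeq windows of GRCm38.p6. Genes without a probe set of their own or without a promoter window were not analysed here in that respect.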

Additional observations from a re-analysis of the deposited data

Results flagged for a closer look

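The effect of losing 1 factor differed with the presence of the other for 1 gene of the wider pathway list, by the interaction test. For Slfn2 the interaction was -0.93 on the log2 scale (SE 0.15, limma adjusted p = 0.0259): loss of OBF-1 gave 0.022 from wild type (95% interval -0.20 to 0.25) and -0.90 from Aiolos-/- cells (95% interval -1.13 to -0.68), and loss of Aiolos gave -0.75 from wild type and -1.67 from OBF-1-/- cells. The call held in 9 of 17 alternatives. It was lost without moderation of the variances, where the adjusted p was 0.351, and without either wild type array, either OBF-1-/- array, Aiolos-/- replicate 2 or either double-mutant array, and held without Aiolos-/- replicate 1.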

How the results depend on the processing

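No result changed direction in 763 recomputed values. Of these, 576 kept direction and side of the threshold, 184 no longer passed (17 of them under the 1.5-fold minimum) and 3 newly passed. The results recomputed were those that had passed and the 3 largest changes of each mutant against wild type, so reversals were unlikely from the start. Moderation of the variances mattered most: without it the number of the 43 genes that passed was 0 in OBF-1-/- cells, 0 in Aiolos-/- cells and 1 in double-mutant cells against wild type, and 0 in double-mutant cells against each single mutant, Socs1 being the gene left (limma adjusted p = 0.0389); the cause was not tested. A trend and robust variance model gave 2 in OBF-1-/- cells, and a fit on only the compared genotypes, which has fewer arrays, gave 0 there. Requiring at least 1.5-fold left 0 in OBF-1-/- cells, 3 in double-mutant cells against wild type and 1 against Aiolos-/- cells. Leaving out 1 array at a time gave 0 to 1 genes in OBF-1-/- cells (0 without wild type replicate 1 or OBF-1-/- replicate 1), 0 to 4 in Aiolos-/- cells (0 without wild type replicate 1, 1 without Aiolos-/- replicate 2), 4 to 6 in double-mutant cells, 1 to 2 in double-mutant cells against Aiolos-/- cells (1 without either Aiolos-/- array or double-mutant replicate 2), 1 to 3 against OBF-1-/- cells (1 without OBF-1-/- replicate 1) and 0 to 0 for the interaction. With the replicate number as a block, which does not pair the arrays here, the counts were 1, 4, 7, 3, 3 and 0. The interaction on only the compared genotypes was not run, since it needs all of them. Of the 43 genes, 18 had a mean under 100 units, and no detection call was used here.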
